A study of Mus musculus with 12 samples.

Results

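The genes described here are 9 mouse genes of the interferon signalling machinery: the signal transducer Stat2, the interferon regulatory factors Irf1, Irf2, Irf5, Irf7, Irf8 and Irf9, the kinase Jak2 and the feedback inhibitor Socs1. They were chosen by symbol, with earlier results of these data known. All 9 were found among the 25124 genes listed in each of the deposited expression tables. Their mRNA was measured by poly(A) RNA sequencing of bulk retina from wild-type (WT) C57BL/6J mice in 12 libraries, 2 in each of 6 groups. Intraocular pressure (IOP) was raised to 30 mmHg for 1 h in a single eye, and the untreated eye of the other side served as control. Animals 3 months of age gave the 3mo IOP and 3mo control groups and animals 18 months of age the 18mo IOP and 18mo control groups, with retinas taken on day 2 after the elevation. For the 4xIOP and 4xIOP control groups the procedure began at 3 months of age and was done 4 times, 2 weeks apart, with retinas taken on day 2 after the last elevation. Every control retina thus came from an animal in which the opposite eye had been pressurised, and the age comparison of control eyes rests on such animals. Nothing in the labels says how many animals contributed to a library, so p-values measure the spread between these libraries.

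Interferons bind paired receptors whose cytoplasmic tails carry the Janus kinases Jak1, Jak2 and Tyk2, and these kinases phosphorylate STAT proteins. Type I interferon signalling brings Stat2 and Irf9 into the complex ISGF3, which binds the interferon-stimulated response element (ISRE), while interferon gamma, acting through Jak1 and Jak2, leads to STAT binding at the gamma-activated site (GAS). The IRF proteins share a DNA-binding domain that recognises ISRE-like sequences. Irf7 drives type I interferon production and is itself induced by ISGF3, Irf1 is an early activator, Irf2 competes with Irf1, and Irf5 and Irf8 are abundant in myeloid cells, which in the healthy retina are mainly microglia. Socs1 binds and blocks Janus kinases, closing the loop.

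The stretches upstream of the start sites are shown for the 5 genes in which ISRE or GAS letters were found, since these are the elements that the proteins above bind. Each is the 250 bases before the RefSeq transcript start on build GRCm38.p6 (mm10), read 5′ to 3′ on the strand of the gene, in lower case with the matched letters in capitals. The windows are chr10:128270248-128270497 (plus strand) for Stat2, chr8:46739495-46739744 (plus strand) for Irf2, chr16:10785537-10785786 (minus strand) for Socs1, chr11:53769764-53770013 (plus strand) for Irf1 and chr8:120736108-120736357 (plus strand) for Irf8.
Stat2: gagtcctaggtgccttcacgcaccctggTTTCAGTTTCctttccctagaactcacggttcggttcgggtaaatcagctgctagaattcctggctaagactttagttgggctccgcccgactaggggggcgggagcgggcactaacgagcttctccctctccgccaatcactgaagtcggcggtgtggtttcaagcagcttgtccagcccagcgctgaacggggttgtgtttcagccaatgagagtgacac
Irf2: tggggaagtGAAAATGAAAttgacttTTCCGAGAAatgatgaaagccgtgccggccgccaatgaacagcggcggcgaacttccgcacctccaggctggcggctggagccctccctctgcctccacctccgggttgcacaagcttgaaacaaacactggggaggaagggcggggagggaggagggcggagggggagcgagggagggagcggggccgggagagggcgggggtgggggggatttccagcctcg
Socs1: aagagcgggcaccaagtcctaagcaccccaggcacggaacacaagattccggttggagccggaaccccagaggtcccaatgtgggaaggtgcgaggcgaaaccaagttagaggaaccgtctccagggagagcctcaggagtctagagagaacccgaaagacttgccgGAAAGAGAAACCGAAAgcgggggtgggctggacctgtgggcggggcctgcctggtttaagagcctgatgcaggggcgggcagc
Irf1: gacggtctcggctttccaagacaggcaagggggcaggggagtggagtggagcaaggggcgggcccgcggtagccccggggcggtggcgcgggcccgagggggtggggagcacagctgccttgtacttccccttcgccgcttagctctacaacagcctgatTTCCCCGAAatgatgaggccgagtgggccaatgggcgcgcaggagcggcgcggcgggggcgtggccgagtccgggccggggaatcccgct
Irf8: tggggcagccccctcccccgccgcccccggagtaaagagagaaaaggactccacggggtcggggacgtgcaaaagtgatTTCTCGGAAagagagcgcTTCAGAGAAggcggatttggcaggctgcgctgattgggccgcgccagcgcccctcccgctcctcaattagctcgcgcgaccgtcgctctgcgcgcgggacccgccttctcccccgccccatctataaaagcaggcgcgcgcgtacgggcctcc
The ISRE was searched on either strand as GAAA, any 2 bases and GAAA again, and the GAS as TTCNNNGAA with N for any base, which reads the same on both strands. Counting back from the transcript start, Stat2 held an ISRE match on the reverse strand from base -222 to -213. Irf2 held an ISRE match from -241 to -232 and a GAS match from -224 to -216. Socs1 held 2 overlapping ISRE matches, from -83 to -74 and from -77 to -68. Irf1 had a GAS match from -90 to -82, and Irf8 had 2 GAS matches, from -171 to -163 and from -153 to -145. In the windows of Irf9, Irf5, Irf7 and Jak2 these letters were not present. These 4 genes lie at chromosome 14, 55604579 to 55610030 (Irf9, plus strand), chromosome 6, 29526625 to 29537320 (Irf5, plus strand), chromosome 7, 141263183 to 141266424 (Irf7, minus strand) and chromosome 19, 29251803 to 29313092 (Jak2, plus strand). Of all 32851 windows of this length in the RefSeq table, 2.98% held the ISRE letters and 7.02% the GAS letters.

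**Figure D1:**
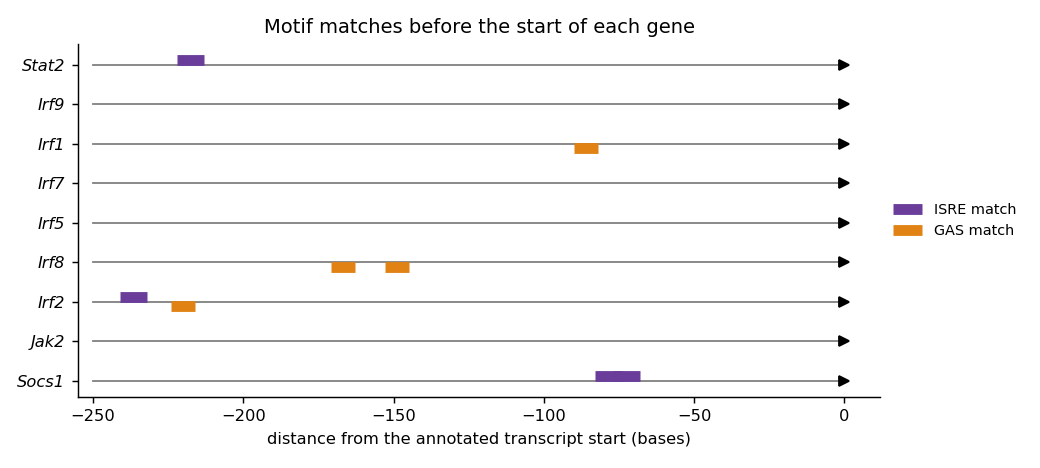
Position of ISRE (purple) and GAS (orange) matches in the 250 bases before the transcript start of each gene, with distance from the start in bases on the horizontal axis and the arrowhead at the start. Of the 9 genes, 5 had a match, between bases -241 and -68, and Irf9, Irf7, Irf5 and Jak2 had none.

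Levels are given in FPKM, fragments per kilobase of transcript scaled to the mapped tags of the library, so that they can be compared between genes per length. The libraries held 39766256 to 59455053 mapped tags, of which 44.2% to 71.5% lay in exons. The 2 tables were normalised separately and are compared only within themselves. The libraries differed in length bias: the median FPKM of genes under 1000 bases, divided by that of genes of at least 4000 bases, was 3.03 to 9.12 in the 4 libraries from 3-month-old animals and 1.52 to 1.89 in the 4 from 18-month-old animals of the single-elevation table, and 1.97 to 2.91 in the repeated-elevation table. Retinal tissue was evident in all 12 libraries, with a summed level of 8 rod markers of 4768 to 24155 FPKM. The libraries also differed in tissue composition. The summed level of 8 pigment epithelium markers was 174 to 487 FPKM in the 3-month libraries against 2.19 to 9.97 FPKM in the 18-month libraries, and that of 8 ganglion cell markers was 326 to 631 against 31.7 to 89.2 FPKM. Between control eyes the ratio of mean sums, 18 to 3 months, was 5.50 for 8 endothelial markers (7 called higher) and 2.00 for 8 Müller glia markers (4 called higher), where 11.6% of all tested genes were called higher. For 4xIOP against its control it was 1.82 for endothelium, 0.171 for pigment epithelium (3 of 3 tested markers called lower, against 0.693% of all tested genes) and 0.604 for rods. For IOP at 3 months it was 1.92 for pigment epithelium (1 of 7 tested markers called higher, against 0.568% of all tested genes), and for IOP at 18 months it was 1.63 for Müller glia (6 of 8 markers higher without overlap, against 36.5% of all tested genes) and 0.788 for rods. The part of these cells in the levels below was not tested. In bulk tissue fewer cells of a type and less RNA per cell cannot be told apart.

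In these retinas most of the interferon signalling factors lay above their control levels in pressurised eyes. Of all tested genes 28.6%, 36.5% and 27.7% were higher without overlap for IOP at 3 months, IOP at 18 months and 4xIOP. More of the factors were called after 4 elevations than after 1, in tables that were not tested against each other. Calls over all tested genes went the same way, at 0.575%, 0.124% and 6.15% in that order. Irf9, Irf1, Irf7 and Stat2 rose in 4xIOP retinas, by 1.49 to 3.21 on the log2 scale. Irf7 rose after a single elevation at 3 months, and Irf7 and Stat2 were higher in 18mo control than in 3mo control retinas. Irf8 met the same thresholds with 4xIOP, with IOP at 3 months and with age, and Irf5 with 4xIOP, from control levels under the filter. The calls of Irf7 and Irf8 for IOP at 3 months and of Stat2 and Irf8 for age were lost under several alternative settings, given below. Jak2, Socs1 and the antagonist Irf2 were called in none of the comparisons. Changes are differences of log2(FPKM + 0.5) from limma, fitted over all genes that averaged 0.5 FPKM or more. Genes count as called where the Benjamini-Hochberg adjusted p did not exceed 0.05 and the log2 change reached 1. On this scale the change of a gene expressed at low level is understated. All 9 genes passed the filter in the single-elevation table and 8 in the repeated-elevation table, where Socs1 had a mean of 0.284 FPKM. Irf5, Irf8 and Socs1 passed in the first table only through the groups in which they were high, as did Irf5 and Irf8 in the second, so their changes are descriptions, and counts over the 9 genes are followed by the count of those at or above 0.5 FPKM in both groups of a comparison.

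**Figure D2:**
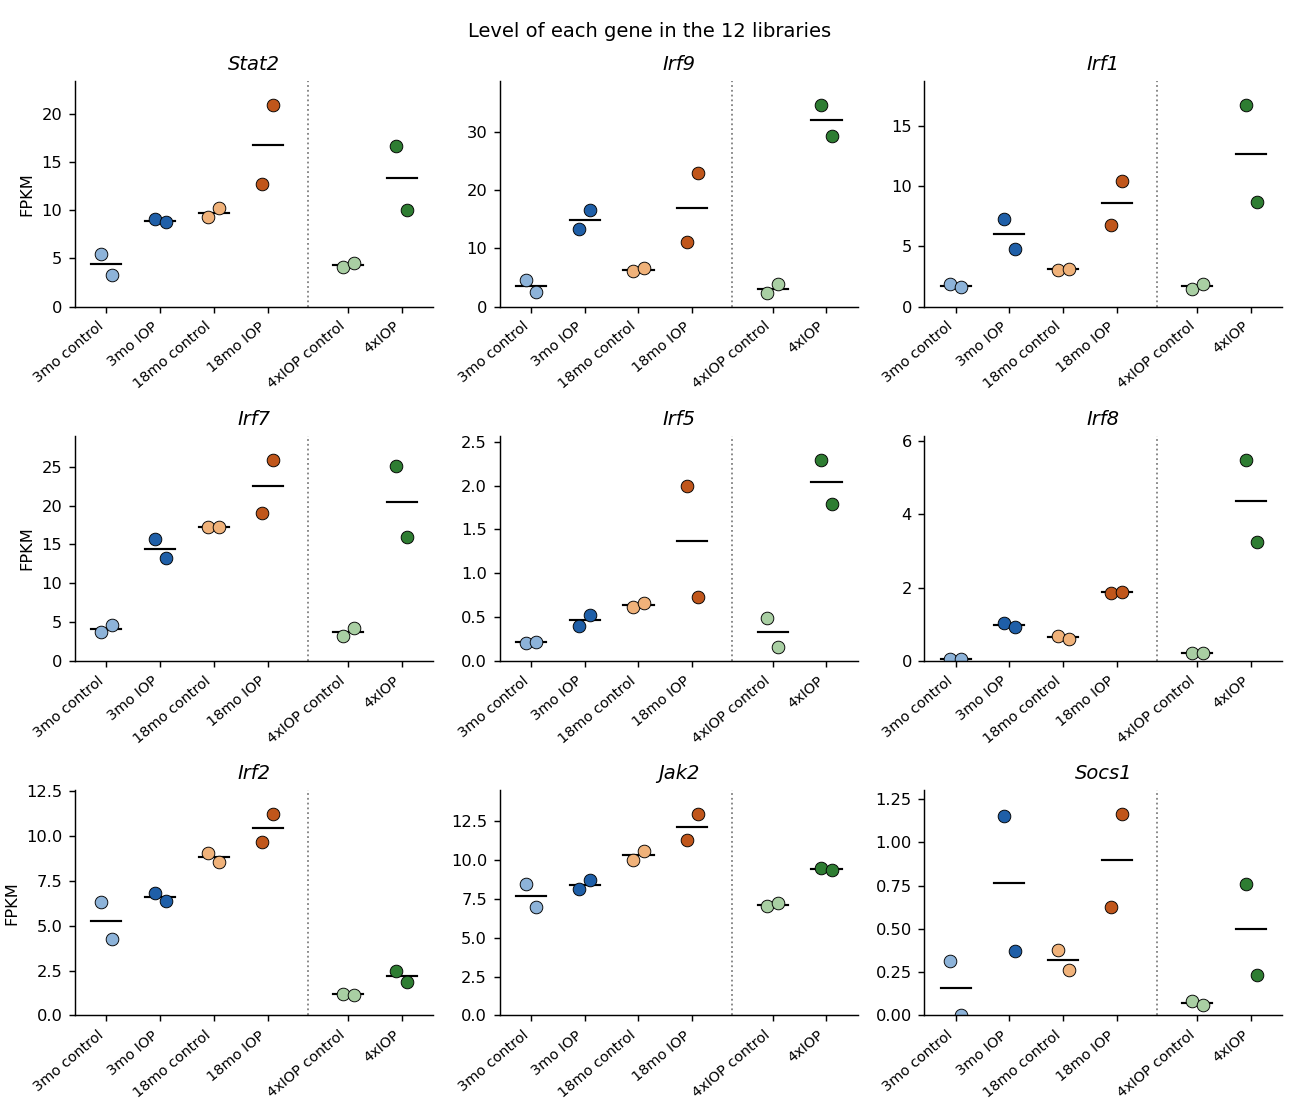
FPKM of the 9 genes in each of the 12 libraries, on linear axes starting at 0, with a point for each library and a horizontal line at the mean of the 2 libraries of a group. The dotted line divides the separately normalised tables. Both 4xIOP points lie above both 4xIOP control points for all 9 genes, of which Socs1 was under the filter and not tested. Of all tested genes 27.7% were higher in this way.

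Stat2 and Irf9, subunits of ISGF3, both had their highest levels in pressurised eyes. Stat2 measured 5.50 and 3.23 FPKM in the 3mo control libraries, 9.10 and 8.73 in 3mo IOP, 9.25 and 10.3 in 18mo control and 12.7 and 20.9 in 18mo IOP libraries. The 4 groups did not overlap and ran in that order. Stat2 was higher by 1.11 ± 0.286 (log2 change ± SE, 2 libraries per group) in 18mo control than in 3mo control eyes (adjusted p = 0.0168). This call was lost without 3mo control replicate 2, when the change was 0.77, and without either 18mo control replicate, when it was 1.19 or 1.04. It was lost too with median-of-ratios scaling (0.96), quantile normalisation (0.93) and the length trend removed (0.75). The IOP changes were 0.99 ± 0.286 at 3 months (adjusted p = 0.256) and 0.71 ± 0.286 at 18 months (adjusted p = 0.464), neither of which passed. In the repeated-elevation table Stat2 was at 4.07 and 4.51 FPKM in 4xIOP control and 16.7 and 9.97 in 4xIOP libraries, and it rose by 1.49 ± 0.249 (adjusted p = 0.00159), a call that quantile normalisation removed (change 1.38).

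Irf9, the DNA-binding subunit of ISGF3, had the largest difference of log2(FPKM + 0.5) of the 8 genes tested in 4xIOP retinas, although by the ratio of mean FPKM Irf8 stood first (19.8). It stood at 2.34 and 3.83 FPKM in the 4xIOP control and at 34.6 and 29.4 in the 4xIOP libraries, a ratio of mean FPKM of 10.4 and a log2 change of 3.21 ± 0.249 (adjusted p = 2.68e-06). After a single elevation at 3 months the levels were 4.65 and 2.51 for controls, against 13.3 and 16.6 for IOP libraries. At 18 months they were 6.13 and 6.57 in control and 11.2 and 22.9 in IOP libraries. The ranges of 3mo IOP and 18mo IOP overlapped, whereas each IOP group lay above its own controls. The changes of 1.96 ± 0.356 at 3 months (adjusted p = 0.0661) and 1.27 ± 0.356 at 18 months (adjusted p = 0.219) were not called, and the difference with age in control eyes was 0.80 ± 0.356 (adjusted p = 0.0976). Leaving out either 18mo IOP replicate, which enters only the shared estimate of spread, brought the 3-month change of 1.96 past the threshold, and leaving out 3mo control replicate 1 did so for age (1.18). Exons of Irf9 overlap those of Rnf31, a ubiquitin ligase subunit gene on the same strand, so reads of the pair could not be separated fully. Rnf31 itself was called for age (1.47 ± 0.215, adjusted p = 0.00518) but differed by 0.30 ± 0.246 with 4xIOP (adjusted p = 0.751).

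Irf1, an activator induced early by interferons, had its lowest levels in young control eyes. The 3mo control libraries had 1.85 and 1.62 FPKM, the 18mo control libraries 3.07 and 3.17, the 3mo IOP libraries 7.29 and 4.75, and the 18mo IOP libraries 6.82 and 10.5, and the IOP groups of the 2 ages overlapped. The IOP change at 3 months was 1.52 ± 0.258 (adjusted p = 0.0531), just short of the threshold, and that at 18 months was 1.31 ± 0.258 (adjusted p = 0.115). In fits without a block the 3-month change was called with a pseudocount of 0.1 (change 1.71) and without either 18mo IOP replicate (1.52). With 4xIOP the level went from 1.48 and 1.87 to 16.8 and 8.70 FPKM, a rise of 2.54 ± 0.268 (adjusted p = 3.34e-05).

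Irf2, which binds the same elements as Irf1 and opposes it, varied far less. It measured 6.30 and 4.25 FPKM in the 3mo control libraries, 6.84 and 6.38 in 3mo IOP, 9.05 and 8.57 in 18mo control and 9.68 and 11.2 in 18mo IOP libraries. The groups did not overlap, but the gaps between IOP and control were small. The age difference in control eyes of 0.71 ± 0.205 passed the adjusted p (0.0245) and stayed under 2-fold, and the IOP changes were 0.32 ± 0.205 at 3 months and 0.23 ± 0.205 at 18 months. In the repeated-elevation table Irf2 stood at 1.22 and 1.16 FPKM in control and at 2.48 and 1.88 in 4xIOP libraries (0.66 ± 0.213, adjusted p = 0.0942). The tables count Irf2 on different transcripts, of 2358 and 2473 bases, so its level cannot be set across them.

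Irf7, the factor that amplifies type I interferon production, had the largest difference of log2(FPKM + 0.5) with age of the 9 genes, although by the ratio of mean FPKM Irf8 stood first (10.1). The 3mo control libraries were at 3.70 and 4.59 FPKM and the 18mo control libraries both at 17.3 FPKM, a ratio of means of 4.16. The difference of 1.94 ± 0.203 (adjusted p = 0.00301) was called under all 11 alternative settings and whichever of the 8 libraries was left out. Over all tested genes the median log2 difference with age was 0.16. After a single elevation at 3 months Irf7 rose to 15.7 and 13.2 FPKM (1.69 ± 0.203, adjusted p = 0.0293). At 18 months the IOP libraries were at 19.0 and 25.9 FPKM, above the controls, with a change of 0.35 ± 0.203 (adjusted p = 0.775). The estimated IOP change at 18 months was below that at 3 months by 1.33 ± 0.287 on the log2 scale. The 95% interval of the difference, from -1.99 to -0.67, was not adjusted for the number of genes. The interaction was not called for Irf7 (limma, adjusted p = 0.9999 over all genes). With 4xIOP the level went from 3.20 and 4.26 to 25.0 and 15.9 FPKM, a rise of 2.29 ± 0.254 (adjusted p = 5.08e-05). The 3mo IOP, 18mo control and 18mo IOP groups lay apart in that order. The call for IOP at 3 months held in 7 of 12 alternative settings, including a block crossing the library numbers that was chosen after seeing the data. It was lost without 3mo control replicate 1 (1.55), 3mo IOP replicate 1 (1.57), 3mo IOP replicate 2 (1.80) or either 18mo control replicate (1.69 in both cases).

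Irf8, a lineage factor of microglia and macrophages, was close to the limit of measurement in young control eyes, with 8 reads in each library, or 0.068 and 0.059 FPKM. The 18mo control libraries were at 0.692 and 0.596 FPKM, the 3mo IOP libraries at 1.03 and 0.915 and the 18mo IOP libraries at 1.86 and 1.87, and no groups overlapped. The ratios of mean FPKM were 10.1 for age and 15.3 for IOP at 3 months, both against the same 16 reads, and 2.90 for IOP at 18 months. The log2 changes were 1.02 ± 0.202 for age (adjusted p = 0.00826), 1.38 ± 0.202 for IOP at 3 months (adjusted p = 0.0325) and 1.05 ± 0.202 for IOP at 18 months (adjusted p = 0.115). The call for age was lost without 18mo control replicate 1 (0.96) or 2 (1.08), with a pseudocount of 1 (0.63), and with median-of-ratios scaling (0.995), quantile normalisation (0.89) or the length trend removed (0.81), while voom on the recovered reads gave 3.08. The call for IOP at 3 months held in 3 of 11 alternative settings, including a block crossing the library numbers that was chosen after seeing the data. This call was lost without 3mo control replicate 1 (1.39), 3mo IOP replicate 1 (1.33) or 2 (1.44), or either 18mo control replicate (1.38). In the repeated-elevation table Irf8 went from 0.222 and 0.217 to 5.48 and 3.23 FPKM, a ratio of 19.8 and a change of 2.71 ± 0.25 (adjusted p = 1.12e-05).

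Irf5, which acts downstream of Toll-like receptors in myeloid cells, was likewise low. The 3mo control libraries were at 0.210 and 0.221 FPKM, with 0.397 and 0.529 in 3mo IOP, 0.618 and 0.667 in 18mo control and 2.00 and 0.733 in 18mo IOP libraries. The groups did not overlap, yet 18mo IOP replicate 1 was far above replicate 2. The differences of 0.67 ± 0.329 with age (adjusted p = 0.123) and 0.43 ± 0.329 with IOP at 3 months (adjusted p = 0.921) were not called. The change at 18 months was 0.62 ± 0.329 with both libraries (adjusted p = 0.707), 0.11 without replicate 1 and 1.13 without replicate 2. With 4xIOP the level went from 0.496 and 0.163 to 2.30 and 1.79 FPKM, a change of 1.64 ± 0.261 (adjusted p = 0.00107) that was not called without 4xIOP replicate 1 (1.495) or 2 (1.78).

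Irf5 and Irf8 are expressed by microglia, and the levels of microglial markers are given beside them. The summed FPKM of 12 microglial markers, among them Csf1r, Cx3cr1, P2ry12 and Tmem119, came to 35.5 and 52.6 for 3mo control, to 118 and 99.3 for 3mo IOP, to 104 and 116 for 18mo control and to 302 and 140 for 18mo IOP libraries. It was 17.6 and 18.0 in 4xIOP control and 141 and 153 in 4xIOP libraries. The ratio of mean sums was 2.47 for IOP at 3 months, 2.01 for IOP at 18 months, 2.50 for age and 8.27 for 4xIOP. Called higher were 10 of 11 tested markers for 4xIOP (5.45% of all tested genes) and 6 of 12 for age (11.6%), but 0 of 12 with limma for IOP at 3 months, where 5 had an unadjusted p under 0.05, and 0 of 12 for IOP at 18 months, where 5 did. Without overlap 11 of 12 were higher for IOP at 3 months (28.6% of tested genes) and 5 of 12 at 18 months (36.5%). Irf5 was highest in the single-elevation table in 18mo IOP replicate 1, the library with the highest marker sum, whereas Irf8 was nearly equal in both 18mo IOP libraries. Markers of infiltrating leukocytes, such as Ly6c2, Ccr2 and Plac8, summed to 0.222 and 0.704 FPKM in 4xIOP control and to 52.4 and 56.5 in 4xIOP libraries, with 8 of 12 higher without overlap (27.7% of tested genes), while Cd79a had no reads in either 4xIOP library. In the single-elevation table the same sum at 3 months was 2.33 and 11.1 FPKM for control against 6.68 and 2.94 for IOP eyes, and at 18 months 0.687 and 0.827 for control against 2.94 and 4.48 for IOP eyes. It thus overlapped between IOP and control at 3 months and was higher with IOP at 18 months without overlap (ratio 4.90). The 4 of 12 markers higher without overlap there are near the background of 36.5%. The sum was lower with age in control eyes (ratio 0.112), where the young controls differed widely, at 2.33 and 11.1 FPKM. Of 3 tested markers 1 was called lower with age, against 11.6% of all tested genes. The part of these cells in the levels of Irf5, Irf8 and the other factors was not tested.

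**Figure D3:**
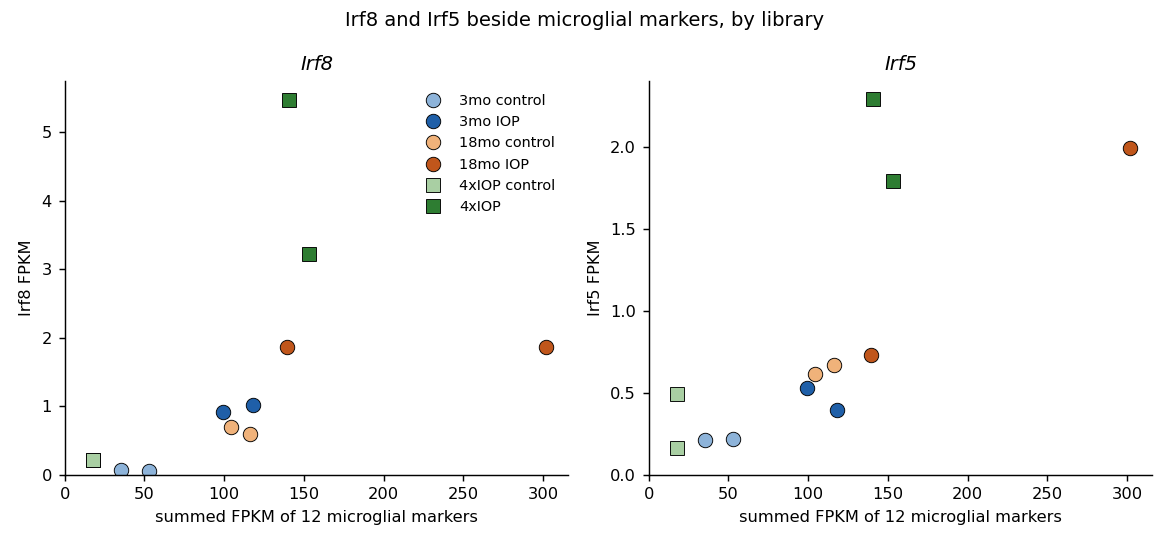
FPKM of Irf8 (left) and Irf5 (right) against the summed FPKM of 12 microglial markers, with a point for each library, circles for the single-elevation table and squares for the separately normalised repeated-elevation table. The 3mo control libraries sit at the lower left, 18mo IOP replicate 1 has the highest marker sum of 302, and within the repeated-elevation table Irf8 is higher in the 4xIOP libraries, at 5.48 and 3.23 FPKM, than in their controls.

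Jak2, the kinase of the interferon gamma receptor and of many cytokine receptors, was steady next to the transcription factors. The 3mo control libraries were at 8.48 and 6.97 FPKM, with 8.14 and 8.71 in 3mo IOP, 10.04 and 10.61 in 18mo control and 11.3 and 13.0 in 18mo IOP libraries, and only the 3-month groups overlapped. The changes were 0.40 ± 0.170 for age (adjusted p = 0.0844), 0.12 ± 0.170 for IOP at 3 months and 0.22 ± 0.170 for IOP at 18 months. The age value became -0.01 once the trend with transcript length was removed, and that for IOP at 3 months was -0.07 with median-of-ratios scaling and -0.04 with quantile normalisation, so neither has a firm sign. In 4xIOP libraries Jak2 was at 9.49 and 9.39 against 7.07 and 7.22 FPKM in control (0.38 ± 0.205, adjusted p = 0.454, with a 95% interval from -0.07 to 0.82).

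Socs1, the feedback inhibitor, was measured with few reads. The 3mo control libraries were at 0.317 and 0 FPKM and the 3mo IOP libraries at 1.15 and 0.375, while at 18 months controls stood at 0.376 and 0.264 against 0.629 and 1.16 after IOP. Each IOP group lay above its controls, though at 3 months the lower IOP library exceeded the higher control by little. The changes of 0.91 ± 0.385 at 3 months (adjusted p = 0.561) and 0.74 ± 0.385 at 18 months (adjusted p = 0.678) did not pass. In 4xIOP control libraries 4 and 3 reads were found (0.083 and 0.058 FPKM), against 0.762 and 0.234 FPKM in 4xIOP libraries, 64 reads in all, and no test was made.

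Set side by side, the comparisons differed in how many of the genes they called. Between 18mo control and 3mo control 3 of 9 genes were called, all higher, where 23.2% of all tested genes were called and 11.6% were called higher. Of the 6 genes with at least 0.5 FPKM in both groups 2 were called, Stat2 and Irf7, where 11% of all genes so restricted were called higher. Without overlap between the groups, 8 of 9 genes were higher, against 45.7% of all tested genes, and 6 of the 6 at or above 0.5 FPKM in both groups, against 45% of genes so restricted. Within IOP eyes, 18mo IOP against 3mo IOP, 0 of 9 genes were called by limma (background 21.8%, or 10.2% for calls higher), 6 had an unadjusted p under 0.05 (53.0% of all tested genes), and voom on the recovered reads called 0 too. The differences were largest for Irf5 (0.87 ± 0.329), Stat2 (0.84 ± 0.286) and Irf8 (0.69 ± 0.202), and 5 genes, Irf2, Irf7, Irf8, Jak2 and Stat2, passed on the adjusted p alone, as did 42.6% of all tested genes. The same 5 were among the 8 at or above 0.5 FPKM in both groups, of which 0 were called. Leaving out 18mo IOP replicate 1 brought Stat2 to a call (1.18), and leaving out replicate 2 did so for Irf5 (1.38). There 6 of 9 genes were higher without overlap, against 43.2% of all tested genes, and 5 of the 8 restricted genes, against 43.1%.

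For IOP at 3 months 2 of 9 genes were called, Irf7 and Irf8, against 0.575% of all tested genes (0.568% called higher), and among the 6 genes with at least 0.5 FPKM in both groups Irf7 was the only call (0.457% of all genes so restricted). Higher values without overlap were found for 8 of 9 genes, against 28.6% of tested genes, and for 5 of the 6 restricted genes, against 26.8%. For IOP at 18 months 0 of 9 genes were called by limma (background 0.124%, or 0.117% for calls higher) and 0 by voom, with 4 at an unadjusted p under 0.05, namely Irf1, Irf8, Irf9 and Stat2, against 9.45% of all tested genes. All 9 genes were higher without overlap, against 36.5% of tested genes, as were 8 of the 8 restricted genes, against 36.6%. The interaction, that is the IOP change at 18 months less that at 3 months, called 0 of 9 genes with limma and 0 with voom, and 0.0% of all tested genes passed it, with Irf7 alone among the 9 at an unadjusted p under 0.05 (1.59% of all tested genes). For 4xIOP 6 of 8 tested genes were called, against 6.15% of all tested genes (5.45% called higher), and 4 of the 6 genes with at least 0.5 FPKM in both groups were called (2.97% of all genes so restricted). All 8 tested genes were higher without overlap, against 27.7% of tested genes, as were 6 of the 6 restricted genes, against 25%. The age comparison and the 3-month IOP comparison share the 3mo control libraries, and the 18-month IOP comparison shares 18mo control libraries with the former, so their changes are not independent of each other.

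**Figure D4:**
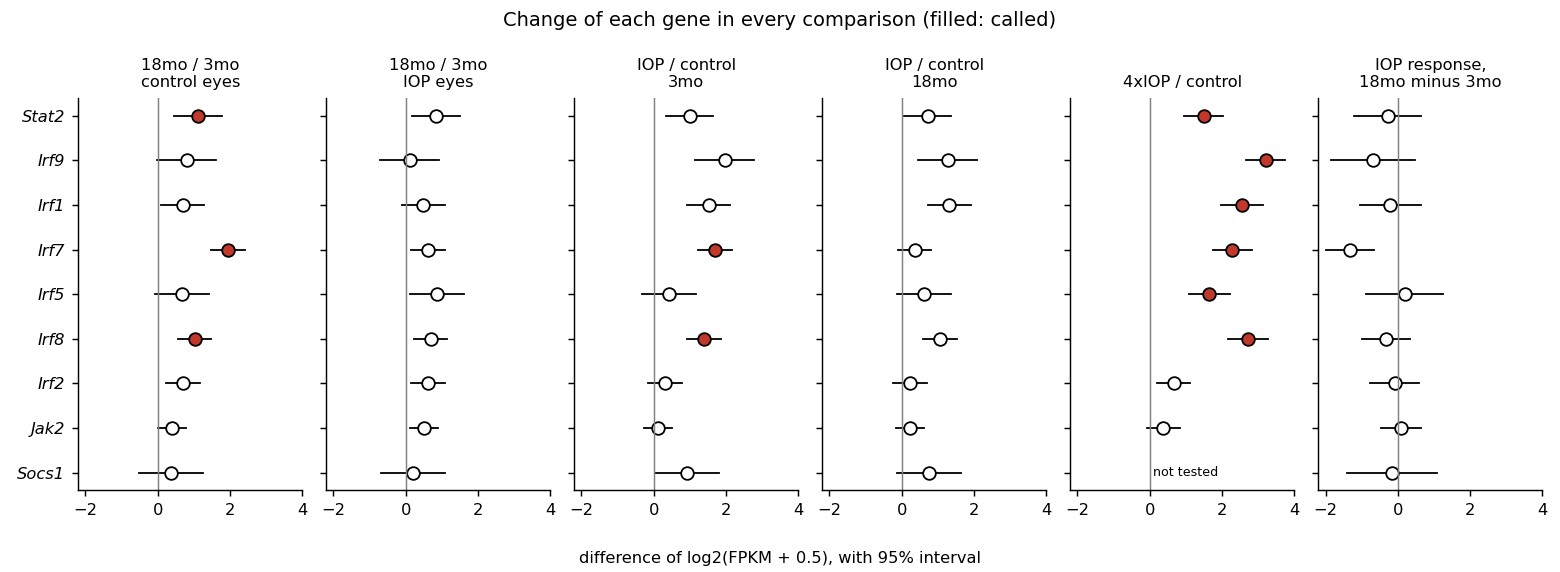
Change of each gene in the 5 comparisons and in the interaction, as a difference of log2(FPKM + 0.5) on the horizontal axis, with a point at the estimate from limma, a line over its 95% interval and filled points for called genes. The 6 filled points for 4xIOP lie between 1.49 and 3.21, where 6.15% of all tested genes were called. Irf7 at -1.33 is the only interaction whose interval, not adjusted for the number of genes, leaves out 0, and it was not called.

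Of 60 other genes of the pathway, a list chosen with earlier results of these data known, 46 were tested in each table. Of 8 ligands listed only Il15 was tested, and it was not called in any comparison. Ifna4, Ifne and Ifnk had no reads in the 12 libraries, and Ifng had reads only in 4xIOP replicate 1 (4 reads). Ifnb1, the gene of interferon beta, had 0 reads in the 3-month and the repeated-elevation libraries, 2 in each 18mo control library and 14 and 16 in the 18mo IOP libraries. Il27, a cytokine gene of myeloid cells, had 0 reads in 3mo control and 4xIOP control libraries, whereas control eyes at 18 months gave 2 and 5 reads. After IOP it had 40 and 24 reads at 3 months, 23 and 62 at 18 months and 44 and 30 with 4xIOP. A count of 0 here allows up to 3 reads.

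Among the receptor chains, Ifnar1, Ifngr1 and Ifngr2 were called in no comparison, while Ifnar2, the signalling chain of the type I receptor, rose by 1.44 ± 0.194 with 4xIOP (adjusted p = 0.00028), as did Il10rb by 1.35 ± 0.202 (adjusted p = 0.000638). Among the kinases, Jak1 was not called in any comparison and was at -0.03 ± 0.156 for IOP at 3 months. Tyk2, the type I receptor kinase, was higher with age by 1.06 ± 0.243 in control eyes (adjusted p = 0.0119), and Jak3, a kinase of lymphoid and myeloid cells, was higher by 1.39 ± 0.355 with age (adjusted p = 0.0166) and by 2.15 ± 0.256 with 4xIOP (adjusted p = 9.48e-05), in both cases from a control mean under 0.5 FPKM, so that it passed the filter only through the higher groups.

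Stat3, the effector of interleukin 6 family cytokines, was called for age (1.68 ± 0.290, adjusted p = 0.00623) and for 4xIOP (2.15 ± 0.231, adjusted p = 3.95e-05), and Stat6 only for 4xIOP (1.04 ± 0.200, adjusted p = 0.00433). Irf3, which acts before interferon is made and is not itself interferon-induced, was called in no comparison and changed by -0.07 ± 0.252 with 4xIOP. Of the cofactors, Irf2bp2 and Irf2bpl, named for binding to Irf2, were higher with age by 1.16 ± 0.220 (adjusted p = 0.00751) and 1.72 ± 0.193 (adjusted p = 0.00376), and the acetyltransferase gene Crebbp was called for age in IOP eyes (1.05 ± 0.272, adjusted p = 0.0192).

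Of 16 inhibitors, Socs3, the relative of Socs1 that restrains Stat3 signalling, differed most, by 3.39 ± 0.359 with age (adjusted p = 0.00312), 2.42 ± 0.359 with IOP at 3 months (adjusted p = 0.0325) and 4.19 ± 0.198 with 4xIOP (adjusted p = 6.69e-08). Usp18, which blocks the type I receptor and is itself interferon-induced, rose by 2.06 ± 0.302 with IOP at 3 months (adjusted p = 0.0325) and by 2.67 ± 0.203 with 4xIOP (adjusted p = 2.36e-06). Among pressurised eyes it was lower at 18 than at 3 months, by -1.26 ± 0.302 (adjusted p = 0.0151). Ddx58, the sensor RIG-I, was the only sensor called for IOP at 3 months (1.28 ± 0.186, adjusted p = 0.0325), and with 4xIOP Ddx58, Ifih1, Dhx58, Tmem173 and Myd88 rose among 10 sensors and adaptors tested. The phosphatase Ptpn6 rose with 4xIOP as well (2.61 ± 0.237, adjusted p = 9.79e-06). In all, 6 of the 46 genes were called higher for age, where 11.6% of all tested genes were, a share near this background. For IOP at 3 months it was 3 (background 0.568%), for IOP at 18 months 0 (0.117%) by limma with 12 at an unadjusted p under 0.05 (9.45% of all tested genes), and for 4xIOP 14 (5.45%). In IOP eyes 7 were higher and 1 lower at 18 months, where 10.2% of all tested genes were called higher, but 2 were higher without either 3mo IOP replicate. Jak3, Socs3, Ptpn6, Dhx58 and Tmem173 averaged under 0.5 FPKM in 4xIOP control and passed the filter through the 4xIOP group, and of the 38 pathway genes at or above it in both groups 9 were called for 4xIOP, against 2.97% of all genes so restricted. The 3 calls for IOP at 3 months were 0 with no filter, median-of-ratios scaling, quantile normalisation or voom, and 0 without 3mo control replicate 1 or either 3mo IOP replicate. The calls for IOP at 3 months were 4 with eBayes fitted without its trend. They were 8 with a block crossing the library numbers, chosen after seeing the data, where 2.17% of all tested genes were called higher. Among pathway genes at or above 0.5 FPKM in both groups the median change was 0.55, 0.21, 0.21 and 0.20 for age, IOP at 3 months, IOP at 18 months and 4xIOP, beside 0.14, 0.13, 0.09 and 0.09 over all genes so restricted.

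Also examined were 54 interferon targets, such as the antiviral Ifit, Mx and Oas genes, guanylate-binding proteins and the antigen-processing genes Tap1 and Psmb8. The list was chosen with earlier results of these data known, so its counts are descriptions. Whether the 9 factors act on these genes here was not tested. For IOP at 3 months 18 of 47 tested targets were called, all higher, against 0.568% of all tested genes. Many targets passed the filter only through the group in which they were high. Of the 34 with at least 0.5 FPKM in both groups 16 were called, against 0.457% of all genes so restricted, and their median change was 1.66 beside 0.13. The 18 calls became 10 with the length trend removed or only the 2 groups fitted, 5 with median-of-ratios scaling, 3 with quantile normalisation, 2 with no filter and 1 with voom. They were 0 without 3mo control replicate 1 or either 3mo IOP replicate, and 4 without either 18mo control replicate. Bst2, which tethers virions (2.77 ± 0.259, adjusted p = 0.0158), and Ifitm3, which blocks viral entry (2.77 ± 0.243, adjusted p = 0.0158), had the largest called differences of log2(FPKM + 0.5), a scale that understates those of less abundant targets. For IOP at 18 months 0 of 47 were called by limma, 37 had an unadjusted p under 0.05 (9.45% of all tested genes), and 46 had a change above 0 (65.9%), with 0 calls by voom and 7 without 18mo IOP replicate 1. A block crossing the library numbers, chosen after seeing the data, called 16 of the 47, where 2.17% of all tested genes were called higher. The 42 targets at or above 0.5 FPKM in both groups had a median change of 1.05, beside 0.09 over all genes so restricted. For 4xIOP 43 of 46 tested targets were called (5.45% of all tested genes), and of the 33 with at least 0.5 FPKM in both groups 30 were, against 2.97% of genes so restricted, with a median of 2.42 beside 0.09. On the log2(FPKM + 0.5) scale they were led by the peptide transporter gene Tap1 (3.94 ± 0.288, adjusted p = 1.66e-06) and Bst2 (3.90 ± 0.259, adjusted p = 7.25e-07). With age in control eyes 6 of 47 targets were called higher, near the background of 11.6%, and 4 of the 34 at or above 0.5 FPKM in both groups (background 11%), with a median of 0.29 beside 0.14. On the same scale the largest differences were those of the chemokine Cxcl10 (2.34 ± 0.506, adjusted p = 0.0101) and the adhesion molecule Icam1 (2.15 ± 0.222, adjusted p = 0.00301). Both averaged under 0.5 FPKM in 3mo control retinas. For the interaction 0 of 47 targets were called, 10 had an unadjusted p under 0.05 by limma (1.59% of all tested genes) and 9 a change above 0 (42.9%). Between IOP eyes of the 2 ages, the 45 targets at or above 0.5 FPKM in both groups had a median of -0.18, beside 0.09 over all genes so restricted. There 28.9% were higher without overlap, against 43.1%. In these eyes 5 of 47 targets were called higher and 5 lower at 18 months, near the background of 10.2% called higher and 21.8% called in all. Without 3mo IOP replicate 1 these counts were 3 and 4, without 3mo IOP replicate 2 they were 2 and 0, without 18mo IOP replicate 1 they were 8 and 5, and without 18mo IOP replicate 2 they were 3 and 6.

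For each of the 9 genes, the gene with the most similar pattern was sought over the 8 single-elevation libraries, by Pearson correlation of log2(FPKM + 0.5). These libraries form 4 groups and differ in length bias along with age, so the values are descriptions. Irf9 was most like the antiviral gene Mx2 (r = 0.983), Irf1 most like Serping1, the complement C1 inhibitor gene (r = 0.989), and Irf8 most like the stress-response factor gene Atf5 (r = 0.994). Irf7 paired with Alad (r = 0.983), Irf5 with Cntn1 (r = 0.971), Socs1 with Dhodh (r = 0.978), Stat2 with Josd1 (r = 0.998), Jak2 with Pus7 (r = 0.997) and Irf2 with Slc35e3 (r = 0.996). Over the 4 repeated-elevation libraries several of these pairs did not run together, with r at -0.678 for Socs1 and Dhodh, -0.072 for Irf2 and Slc35e3, 0.308 for Irf7 and Alad and 0.457 for Irf8 and Atf5, while it was 0.985 for Irf9 and Mx2 and 0.951 for Irf1 and Serping1. Among the 9 genes over the 8 libraries, r ran from 0.377 for Irf5 and Socs1 to 0.965 for Irf2 and Jak2, with 0.932 for Irf9 and Irf1.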

How the data were processed

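Bulk retina of WT mice was sequenced as poly(A), strand-specific libraries, 2 per group. The authors aligned reads to mm10 with STAR (version 2.7.8a per the submitters' processing notes) and used HOMER to count exonic tags on the strand of the gene, keeping a single isoform per gene. The deposited values are FPKM, which the authors scaled by isoform length and by each library's tags, with 1 table per experiment, and replicates were not pooled. The authors' own tests used DESeq2 (1.24.0), which was not run here.

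Groups came from the sample labels. Reads and depth were recovered from FPKM times transcript length, where all values checked were whole within 0.1 read. Genes averaging 0.5 FPKM or more in a table were tested (13731 and 13718) as log2(FPKM + 0.5) in limma 3.58.1 under R 4.3.3, by lmFit and trended eBayes, with 4 and 2 residual degrees of freedom, and p-values were adjusted by Benjamini-Hochberg over all genes tested. In simulated data 99% of 200 genes changed by 2 (log2) were recovered among 13731 genes for IOP at 3 months. The data were drawn from the spread that the test itself assumes, with more changed genes than the 79 called in the real comparison. The share therefore does not measure the power of that comparison. Alternatives were pseudocounts of 0.1 and 1, other filters, scalings, fits and calling rules, voom on recovered reads, removal of the trend with transcript length (spline with 5 degrees of freedom), and leaving out each library. With 2 libraries per group precision is limited by their number, and limits from reads cover counting error only.

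Same-numbered libraries were checked for pairing: their deviations from group means correlated at -0.28, -0.53 and -0.29, and the numbers were not taken as pairs. Each correlation rests on a single difference between replicates. At 3 months the length bias ran oppositely, at 3.03 and 9.12 in control and 7.04 and 5.47 in IOP libraries. The check thus cannot decide pairing, and the main fits treat contralateral eyes as independent. Promoter windows of all 9 genes were matched by symbol and come from RefSeq. The 9 genes and the lists of pathway genes, targets and markers were chosen with earlier results of these data known. Named are the 9 genes, called pathway genes and fixed representatives by role, the 2 largest called rises among targets per comparison, and the most similar gene of each of the 9. The result for a further pathway gene is not reported here.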

Additional observations from a re-analysis of the deposited data

How the results depend on the processing

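The count of called genes among the 9 depended on processing mainly for age and for IOP at 3 months. For age it was 3 and fell to 1, Irf7, with median-of-ratios size factors, with quantile normalisation and with the length trend removed, and it lay between 1 and 4 with 1 library left out (4 without 3mo control replicate 1, where Irf9 joined). For age in IOP eyes it was 0, became 5 with the adjusted p alone, and was 0 to 1 with 1 library left out (Stat2 without 18mo IOP replicate 1, Irf5 without replicate 2). For IOP at 3 months it was 2. It was 1 with a pseudocount of 1, a mean of at least 2 FPKM, the length trend removed or only the 2 groups fitted, 0 with no filter, median-of-ratios size factors, quantile normalisation or voom, 4 with a fold change of at least 2 alone, and 0 to 4 with 1 library left out. For IOP at 18 months it was 0 and became 3 with the fold change alone. The cause was not tested. For 4xIOP (6) the count moved under no alternative by over 1.5 times, nor did that for the interaction (0), which was called on the adjusted p alone and not tried with the fold change alone. A block for same-numbered libraries took the count for IOP at 3 months to 0 and left it at 3 for age, 0 for age in IOP eyes, 0 for IOP at 18 months, 6 for 4xIOP and 0 for the interaction. A block crossing the numbers, chosen after seeing the data, called 4 genes for IOP at 3 months, 3 at 18 months and 6 for 4xIOP, where 2.17%, 2.17% and 5.69% of all tested genes were called higher. The same-numbered block took the 18 target calls for IOP at 3 months to 5 and the 3 pathway calls to 0. The crossing block called 33 targets and 8 pathway genes at 3 months. At 18 months, where the main fit called 0 of either, it called 16 and 3. Pathway genes called higher for age (6) ranged from 4 to 10 over other settings and from 3 to 11 with 1 library left out (11 without 3mo control replicate 1), and targets called higher for age (6) from 5 to 12 (12 with the length trend removed) and from 3 to 9. For age in IOP eyes the 7 pathway genes called higher were 4 with quantile normalisation or the length trend removed. Where a group was left with 1 library, that library was assumed to vary like the others.

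Signs reversed for small changes. Jak2 became -0.0065 for age with the length trend removed, and for IOP at 3 months -0.075 with median-of-ratios size factors, -0.042 with quantile normalisation, -0.066 with voom and -0.0096 to 0.26 with 1 library left out. For age in IOP eyes, with 1 library left out, Irf9 ranged from -0.39 to 0.61 and Socs1 from -0.27 to 0.65. For the interaction the ranges were -0.63 to 0.070 for Stat2, -0.50 to 0.083 for Irf1, -0.35 to 0.17 for Irf2, -0.31 to 0.70 for Irf5, -0.037 to 0.23 for Jak2 and -0.62 to 0.29 for Socs1, and Irf5 was -0.072 with voom. Depth limited Socs1 and Irf8 most, with 7 reads over the 4xIOP control and 16 over the 3mo control libraries.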
